A study of Mus musculus with 12 samples.

Results

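The transcripts of 10 genes of the bone morphogenetic protein (BMP) and activin pathways were followed in mouse lens epithelium after the fiber cells of the lens had been removed. They are Grem1, Bmp2, Bmp4, Bmp7, Inhba, Inhbb, Id1, Id2, Id3 and Smad6, out of 24147 genes in the count files, and were found by their symbols. All 10 were found and all 10 were among the 14560 genes that passed the filter on low counts. The genes were chosen by earlier results from these same libraries, which held the comparisons over time and between genotypes, so what follows describes them and is not independent evidence of their direction. For the 10 genes the values over time and between genotypes are therefore given without p-values. How many of them passed the threshold of the main fit is given beside the share of all genes that did. Counts and calls under other settings, and counts at an unadjusted p, show only how these depend on the processing. Nothing about the 10 genes is read from any of these counts.

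The libraries fell into 4 groups from an adult mouse model of cataract surgery in which the fiber cell mass is taken out and the lens capsule stays behind with its epithelial cells. The FNcKO mice, conditional knockouts for fibronectin, were of a mixed strain of C57BL/6, 129 and FVB/N, and the wild type (WT) mice were C57BL/6, so genotype and strain background cannot be told apart. Capsules were collected 48 h after the operation or directly after it (0 h), which gives 3 libraries each of FNcKO at 48 h, FNcKO at 0 h, WT at 48 h and WT at 0 h. All mice were 2 months old and all had their fiber cells removed, so that there is no unoperated group. The design text calls the replicates biological triplicates. The sources used here do not say which promoter drives Cre, which exons are deleted or how many animals were used for each library.

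BMPs and activins are secreted dimers of the TGF-beta superfamily that bind paired type I and type II receptor kinases. BMP receptors mainly phosphorylate Smad1, Smad5 and Smad9, and activin receptors mainly phosphorylate Smad2 and Smad3. The Id genes and Smad6 are widely used readouts of BMP signalling, and Smad6 feeds back to inhibit it. In the lens, BMP signalling is needed for induction of the lens and for differentiation of fiber cells, while TGF-beta signalling is known to drive the change of epithelial cells towards myofibroblasts after cataract surgery. Gremlin, the product of Grem1, is a secreted antagonist that binds BMP2, BMP4 and BMP7.

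Library totals ran from 8368160 to 10862573 counts. Levels are counts scaled to a common library total (CPM) with the trimmed mean of M-values (TMM), whose factors ran from 0.754 in FNcKO 0 h replicate 3 to 1.17 in WT 48 h replicate 1. All 6 lens epithelial markers (Foxe3, Pax6, Pitx3, Cdh1, Pdgfra and Npnt) were detected in every group. Their summed level was 514 to 1134 CPM in FNcKO at 48 h, against 2051 to 2326 CPM in FNcKO at 0 h. It was 636 to 818 CPM in WT at 48 h, against 1312 to 2047 CPM in WT at 0 h. The sum of 9 lens fiber markers was 9782 to 82195 CPM in FNcKO at 48 h, against 104898 to 227617 CPM at 0 h. In WT it was 11344 to 45444 CPM at 48 h, against 86332 to 148984 CPM at 0 h. The part of these shifts in the values below was not tested. The targeted gene Fn1 had 146, 298 and 688 CPM in FNcKO at 48 h, against 1515, 528 and 979 CPM in WT at 48 h. At 0 h it had 16.8, 9.81 and 8.32 CPM in FNcKO, against 19.0, 23.1 and 15.5 CPM in WT. The genotypes overlapped at both times, and neither Fn1 difference passed an adjusted p of 0.05. FNcKO minus WT was log2 −1.42 at 48 h (SE 0.52, edgeR, Benjamini-Hochberg (BH) adjusted p = 0.713) and log2 −0.72 at 0 h (SE 0.54, adjusted p = 0.609). These counts cover the whole gene, so that transcripts which have lost the deleted exons can still be counted, and the mice are called FNcKO as labelled. In libraries of a whole tissue, fewer cells of a type and less RNA per cell cannot be told apart.

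Grem1 lies on chromosome 2 from 113748675 to 113758648 (mm10, coordinates of the deposited files) and had the largest change of the 10 genes. It had 109, 69.9 and 218 CPM in FNcKO at 48 h, against 3.69, 1.62 and 2.58 CPM in FNcKO at 0 h. It had 1817, 584 and 359 CPM in WT at 48 h, against 2.21, 1.94 and 3.13 CPM in WT at 0 h. Every 48 h library lay far above every 0 h library in both genotypes, and the WT libraries at 48 h differed 5.06-fold among themselves. The fitted ratio of 48 h over 0 h was 49.9-fold in FNcKO (log2 5.64, SE 0.72) and 380-fold in WT (log2 8.57, SE 0.79). Among all 14560 genes tested, this rise ranked 103rd from the highest in FNcKO and 10th in WT. The 0 h levels rested on few reads, with 33, 14 and 18 counts in FNcKO and 22, 19 and 26 counts in WT.

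Sequence around the annotated start of transcription is shown for Grem1, which changed most, and for 3 BMP target genes with lower levels in every WT library at 48 h than at 0 h, to put the letters that Smad proteins are known to recognise beside the values. A promoter in the RefSeq table (build GRCm38.p6) was found for 7 of the 10 genes, each 300 bases long and mostly upstream of the start, and is read 5′ to 3′ on the gene's strand. Capitals mark GTCT or its reverse complement AGAC, the short Smad-binding letters, and GGCGCC, the core of GC-rich BMP response elements. The Grem1 sequence is chr2:113758599-113758898 on the minus strand, Id2 is chr12:25096043-25096342 on the minus strand, Id3 is chr4:136143572-136143871 on the plus strand and Smad6 is chr9:64022010-64022309 on the minus strand.
Grem1: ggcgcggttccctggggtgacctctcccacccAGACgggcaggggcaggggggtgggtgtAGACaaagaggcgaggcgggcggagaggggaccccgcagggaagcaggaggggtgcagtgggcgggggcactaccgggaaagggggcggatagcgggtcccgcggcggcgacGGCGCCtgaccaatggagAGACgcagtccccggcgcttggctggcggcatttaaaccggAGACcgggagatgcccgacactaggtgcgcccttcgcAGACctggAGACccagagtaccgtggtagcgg
Id2: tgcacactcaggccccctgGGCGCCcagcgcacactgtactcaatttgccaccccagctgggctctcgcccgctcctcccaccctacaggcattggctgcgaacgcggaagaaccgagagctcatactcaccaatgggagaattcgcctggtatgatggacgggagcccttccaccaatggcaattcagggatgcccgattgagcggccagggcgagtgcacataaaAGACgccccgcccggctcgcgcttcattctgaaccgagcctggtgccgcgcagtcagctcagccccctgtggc
Id3: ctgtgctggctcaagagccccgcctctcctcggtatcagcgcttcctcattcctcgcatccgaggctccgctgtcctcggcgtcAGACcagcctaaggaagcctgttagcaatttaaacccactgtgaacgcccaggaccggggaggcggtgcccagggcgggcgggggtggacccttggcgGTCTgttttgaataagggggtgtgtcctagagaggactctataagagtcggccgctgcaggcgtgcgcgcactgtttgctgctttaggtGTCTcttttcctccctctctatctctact
Smad6: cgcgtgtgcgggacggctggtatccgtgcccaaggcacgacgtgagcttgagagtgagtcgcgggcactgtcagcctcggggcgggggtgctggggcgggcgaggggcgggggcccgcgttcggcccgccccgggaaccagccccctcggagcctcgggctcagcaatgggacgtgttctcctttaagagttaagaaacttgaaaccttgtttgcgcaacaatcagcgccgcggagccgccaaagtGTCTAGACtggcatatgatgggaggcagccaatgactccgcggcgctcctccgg

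The Grem1 window held 6 matches to GTCT on either strand and 1 to GGCGCC. The Id2 window held 1 match to GTCT and 1 to GGCGCC, the Id3 window held 3 matches to GTCT, and the Smad6 window held 2 matches to GTCT, which together form the palindrome GTCTAGAC. No match to GTCT overlapped a match to GGCGCC. Both strands of all 32851 promoters in the table were searched in the same way. GTCT was present in 88% of them, with a median of 2 matches, GGCGCC in 11.9% and GTCTAGAC in 0.213%. A match is a match of letters and was not tied to binding by any measurement here.

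The plot of levels by library shows the 10 genes in the 4 groups.

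**Figure D1:**
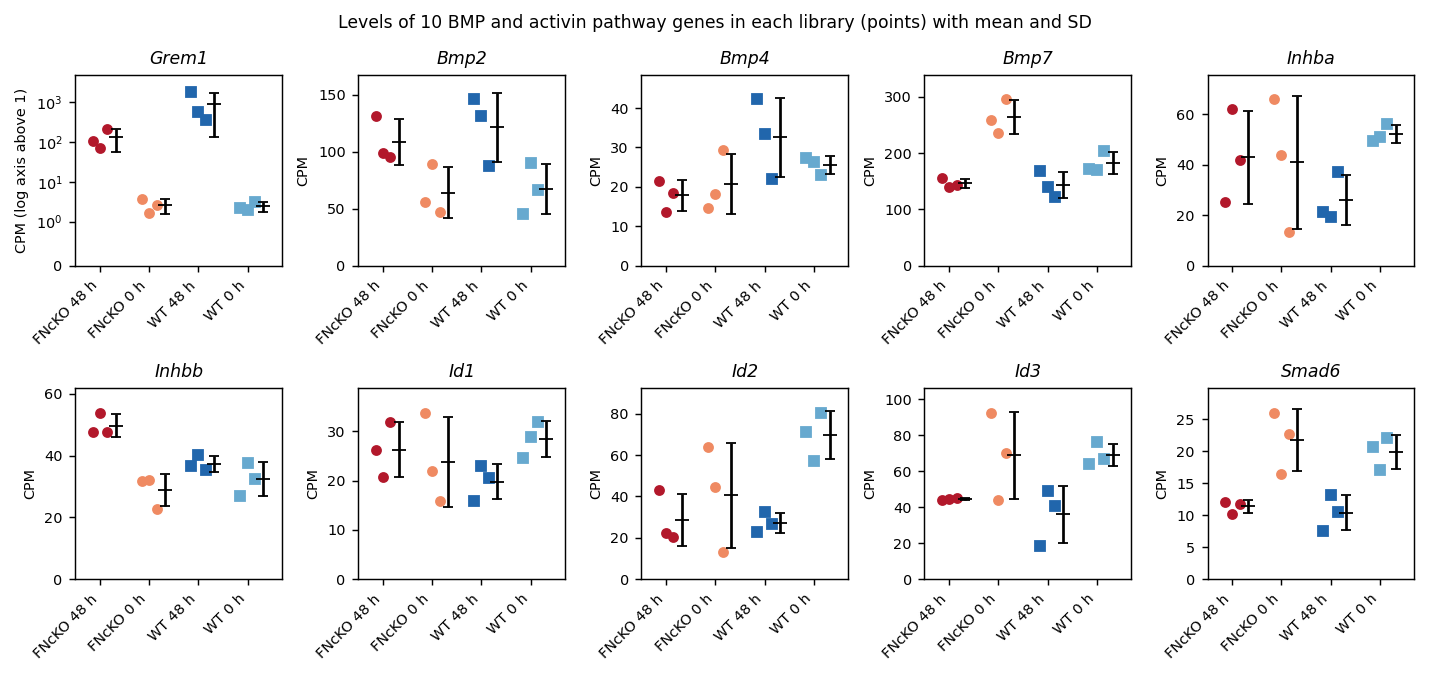
Level of each gene in CPM (y axis) in the 3 libraries of each group (points), with the mean and SD as bars beside them. Grem1 is on a log axis, with 69.9 to 218 CPM in FNcKO at 48 h and 359 to 1817 CPM in WT at 48 h, and the other genes are on linear axes that start at 0.

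Between the genotypes at 48 h, every FNcKO library had less Grem1 than every WT library. The fitted level was 6.96-fold lower in FNcKO (log2 −2.80, SE 0.59). Left out singly, WT 48 h replicate 1, the highest library, moved this to log2 −1.84, and WT 48 h replicate 3 moved it to log2 −3.18. At 0 h Grem1 overlapped between FNcKO and WT (log2 0.13, SE 0.75). The fitted 48 h response of Grem1 in FNcKO minus that in WT was log2 −2.93 (SE 0.94).

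Summed markers of blood-derived cells were, like Grem1, higher at 48 h than at 0 h. The summed level of 4 leukocyte markers (Ptprc, Cd53, Coro1a and Laptm5) was 46.3, 71.4 and 139 CPM in FNcKO at 48 h, against 7.27, 17.2 and 13.1 CPM in FNcKO at 0 h. It was 257, 114 and 79.4 CPM in WT at 48 h, against 12.1, 20.1 and 31.2 CPM in WT at 0 h. All 4 markers were detected in every group. All 4 rose past the threshold in WT and 3 in FNcKO, where Ptprc did not pass. Within the 48 h libraries of each genotype, the library with the most leukocyte marker signal also had the most Grem1. These were WT 48 h replicate 1 and FNcKO 48 h replicate 3. They also had the most Fn1 and the lowest lens epithelial and fiber sums of their groups, with fiber sums of 11344 and 9782 CPM. The other libraries kept the order in WT but not in FNcKO. There, replicate 2 had the least Grem1, 69.9 CPM. Its leukocyte sum of 71.4 CPM was above the 46.3 CPM of replicate 1. FNcKO 48 h replicate 3, however, had a leukocyte sum of 139 CPM, above WT 48 h replicates 2 and 3, while its 218 CPM of Grem1 lay below their 584 and 359 CPM. Of 8 macrophage markers, 7 were in the files and summed to 117 to 278 CPM in FNcKO at 48 h and 189 to 613 CPM in WT at 48 h. At 0 h they summed to 27.8 to 60.1 CPM in FNcKO and 36.1 to 105 CPM in WT. Of the 7, 5 rose past the threshold in each genotype. Csf1r and Mrc1 overlapped over time in both genotypes and passed in neither. The summed level of 5 pigment cell markers also differed at 48 h, with 14.4 to 56.0 CPM in FNcKO and 165 to 428 CPM in WT, and 3 of the 5 were lower in FNcKO past the threshold. Already at 0 h the sums did not overlap, with 71.0 to 89.9 CPM in FNcKO and 107 to 215 CPM in WT. None of the 5 passed the threshold at 0 h. The part of these cells in the Grem1 levels was not tested.

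**Figure D2:**
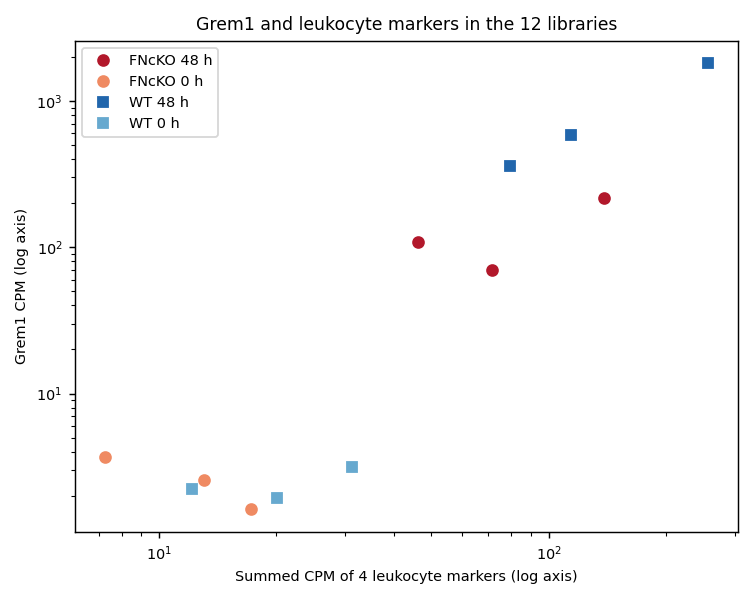
Grem1 level (y axis, CPM, log scale) against the summed level of 4 leukocyte markers (x axis, CPM, log scale) in the 12 libraries, with symbols for the 4 groups. Both axes separate 48 h from 0 h libraries, and FNcKO 48 h replicate 3 (139 and 218 CPM) lies to the right of and below WT 48 h replicates 2 and 3.

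The 5 genes whose log2 CPM followed that of Grem1 most closely over the 12 libraries were Srgn (Pearson r = 0.993), Ms4a8a (0.992), Ccr2 (0.990), Tgm2 (0.987) and S100a9 (0.986). Srgn encodes the proteoglycan serglycin of blood cell granules, Ccr2 is a chemokine receptor of monocytes, S100a9 is a subunit of calprotectin in neutrophils and Tgm2 is transglutaminase 2. The points share the step from 0 h to 48 h, so the coefficients describe that shared step and are given without a test. Srgn averaged 40.3 CPM in FNcKO at 48 h, 1.41 CPM in FNcKO at 0 h, 109 CPM in WT at 48 h and 1.18 CPM in WT at 0 h.

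Bmp2 encodes a BMP ligand that signals through the BMP type I receptors. The gene is on chromosome 2 from 133552159 to 133562896. Bmp2 had 131, 98.9 and 95.4 CPM in FNcKO at 48 h, against 55.8, 89.2 and 47.5 CPM in FNcKO at 0 h. WT libraries had 146, 131 and 87.6 CPM at 48 h, against 45.5, 89.9 and 66.7 CPM at 0 h. All FNcKO libraries at 48 h were above those at 0 h, whereas 1 WT library at 48 h lay just below the highest at 0 h. The fitted change of Bmp2 was log2 0.76 (SE 0.29) in FNcKO and log2 0.85 (SE 0.29) in WT. It was log2 1.07 in FNcKO without FNcKO 0 h replicate 2, the highest there, and log2 0.64 in WT without WT 0 h replicate 1, the lowest there. Between genotypes Bmp2 overlapped at both times.

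Bmp4, a ligand needed for lens induction in the embryo, lies on chromosome 14 from 46383520 to 46390599. Its level was 21.4, 13.7 and 18.5 CPM in FNcKO at 48 h, against 42.2, 33.3 and 22.1 CPM in WT at 48 h. At 0 h it was 14.8, 18.2 and 29.3 CPM in FNcKO, against 27.4, 26.3 and 23.0 CPM in WT. Bmp4 was lower in every FNcKO library at 48 h than in every WT library, by a narrow margin between 21.4 and 22.1 CPM, and the genotypes overlapped at 0 h. The fitted Bmp4 difference at 48 h was log2 −0.86 (SE 0.28). Over time the fitted Bmp4 value was log2 −0.21 (SE 0.29) in FNcKO and log2 0.35 (SE 0.28) in WT. GENCODE M21 places 2 genes on the opposite strand over Bmp4. The sources used here do not say whether the counting used strand, so reads from them cannot be told apart from Bmp4.

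Bmp7, a ligand needed for eye development, is on chromosome 2 from 172868012 to 172940321. Bmp7 had 156, 140 and 143 CPM in FNcKO at 48 h, against 259, 236 and 295 CPM in FNcKO at 0 h. The WT libraries had 168, 139 and 122 CPM at 48 h, against 172, 170 and 204 CPM at 0 h. The 48 h libraries were below the 0 h libraries in both genotypes, with a wide gap in FNcKO and a narrow one in WT. The fitted change of Bmp7 was log2 −0.85 (SE 0.16) in FNcKO and log2 −0.35 (SE 0.16) in WT. At 0 h Bmp7 was higher in every FNcKO library than in every WT library (log2 0.53, SE 0.16). At 48 h the genotypes overlapped (log2 0.03, SE 0.16). The difference of the Bmp7 responses was log2 −0.50 (SE 0.23).

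Inhba and Inhbb encode beta subunits, which pair to form the activins. Inhba gives activin A and lies on chromosome 13 from 16014475 to 16027211. Inhba had 25.0, 61.8 and 41.7 CPM in FNcKO at 48 h, against 65.7, 43.6 and 13.3 CPM in FNcKO at 0 h. Levels in WT were 21.4, 19.3 and 37.2 CPM at 48 h, against 49.3, 51.0 and 56.0 CPM at 0 h. The FNcKO libraries overlapped widely and the WT libraries were all lower at 48 h than at 0 h. The fitted change of Inhba was log2 0.06 (SE 0.48) in FNcKO and log2 −1.0 (SE 0.48) in WT. Without FNcKO 0 h replicate 3, the lowest library, the FNcKO value of Inhba was log2 −0.40. That library also had the lowest Id2 and the largest fiber marker signal, a sum over 9 markers of 227617 CPM, where the other FNcKO 0 h libraries had 123575 and 104898 CPM. The part of fiber cells in its values was not tested. GENCODE M21 places 2 genes on the opposite strand over Inhba as well.

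Inhbb, whose product forms activin B, lies on chromosome 1 from 119415465 to 119422248. Inhbb had 47.8, 53.8 and 47.5 CPM in FNcKO at 48 h, against 31.6, 32 and 22.8 CPM in FNcKO at 0 h. Levels in WT were 36.5, 40.2 and 35.2 CPM at 48 h, against 26.8, 37.7 and 32.5 CPM at 0 h. The 48 h FNcKO libraries were the 3 highest of all 12, and the WT libraries overlapped over time. Over time Inhbb had a fitted change of log2 0.78 (SE 0.18) in FNcKO and log2 0.21 (SE 0.18) in WT. Between genotypes at 48 h it was higher in every FNcKO library, by a fitted log2 0.41 (SE 0.18).

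Of the BMP target genes, Smad6 encodes an inhibitory Smad. It lies on chromosome 9 from 63953076 to 64022059. Smad6 had 12.2, 10.3 and 11.8 CPM in FNcKO at 48 h, against 26.0, 16.5 and 22.7 CPM in FNcKO at 0 h. WT capsules had 7.61, 13.1 and 10.5 CPM at 48 h, against 20.7, 17 and 22.2 CPM at 0 h. All 48 h libraries lay below all 0 h libraries. For Smad6 the fitted change was log2 −0.93 (SE 0.24) in FNcKO and log2 −0.94 (SE 0.24) in WT, and the levels overlapped between genotypes at both times. With total counts as the scale, the FNcKO value of Smad6 was log2 −0.64.

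The Id genes encode helix-loop-helix proteins that bind E proteins and keep them from DNA. Id1 lies on chromosome 2 from 152736251 to 152737410. Id1 had 26.3, 20.8 and 31.8 CPM in FNcKO at 48 h, against 33.8, 22.0 and 15.8 CPM in FNcKO at 0 h. In WT it had 15.9, 23.0 and 20.4 CPM at 48 h, against 24.6, 28.8 and 31.9 CPM at 0 h. The FNcKO libraries overlapped, and the WT libraries at 48 h were all below those at 0 h. The fitted change of Id1 was log2 0.14 (SE 0.26) in FNcKO and log2 −0.52 (SE 0.26) in WT.

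Id2 lies on chromosome 12 from 25093799 to 25096092. Id2 had 43.3, 22.4 and 20.2 CPM in FNcKO at 48 h, against 63.8, 44.6 and 13.2 CPM in FNcKO at 0 h. The WT values were 22.9, 32.6 and 26.6 CPM at 48 h, against 71.0, 57.2 and 80.5 CPM at 0 h. The WT groups were separated by a wide gap, while FNcKO 0 h replicate 3 was the lowest of all 12 libraries and put the FNcKO groups in overlap. For Id2 the fitted change was log2 −0.51 (SE 0.45) in FNcKO and log2 −1.35 (SE 0.46) in WT. With total counts as the scale, the WT value of Id2 was log2 −1.13.

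Id3 lies on chromosome 4 from 136143822 to 136145392. Id3 had 44.3, 44.7 and 45.3 CPM in FNcKO at 48 h, against 92.6, 44.0 and 70.1 CPM in FNcKO at 0 h. In WT it had 18.4, 49.1 and 40.7 CPM at 48 h, against 64.2, 76.1 and 66.9 CPM at 0 h. The FNcKO libraries at 48 h were nearly identical and just above the lowest FNcKO library at 0 h, and the WT groups did not overlap. The fitted change of Id3 was log2 −0.62 (SE 0.31) in FNcKO and log2 −0.94 (SE 0.31) in WT, and the WT value was log2 −0.62 without WT 48 h replicate 1. The responses in FNcKO minus those in WT were log2 0.66 (SE 0.37) for Id1, 0.84 (SE 0.64) for Id2 and 0.32 (SE 0.44) for Id3.

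**Figure D3:**
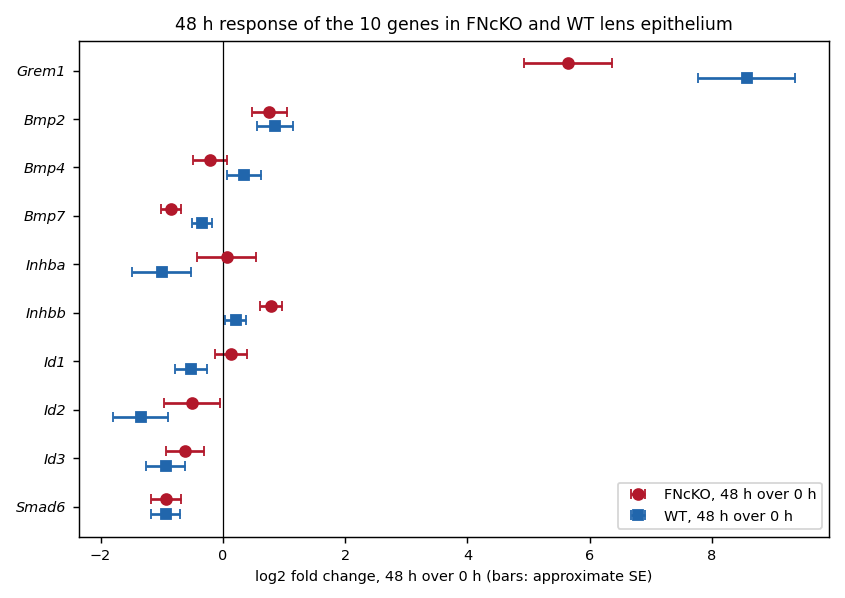
Fitted log2 fold change of 48 h over 0 h (x axis) for each gene, with the approximate SE, in FNcKO (circles) and WT (squares). Grem1 stands at 5.64 in FNcKO and 8.57 in WT, and the other genes lie between −1.35 and 0.85.

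In FNcKO, 4 of the 10 genes passed an adjusted p of 0.05 over time, with Grem1 and Inhbb higher and Bmp7 and Smad6 lower at 48 h. The share of all tested genes that passed was 24.8%, with 14.9% higher and 9.9% lower. In WT, 5 of the 10 passed, with Grem1 and Bmp2 higher and Id2, Id3 and Smad6 lower. The share of all tested genes was 32.6%, with 19.1% higher and 13.5% lower. The genes were chosen with these comparisons known, and nothing is read from the counts. The median change of the 10 was log2 −0.07 in FNcKO and −0.43 in WT, where the median of all tested genes was 0.0018 in FNcKO and 0.02 in WT. When each library was left out in turn, 3 to 5 of the 10 passed in FNcKO and 1 to 5 in WT, with 1 left, Grem1, without WT 48 h replicate 1. The call of Smad6 in FNcKO was lost without FNcKO 0 h replicate 1, without both 0 h replicate 1 libraries, without FNcKO 48 h replicate 2 and with total counts as the scale, and that in WT without WT 48 h replicate 1. In WT, Id2 lost its call when any one of the 6 WT libraries or FNcKO 0 h replicate 2 was left out, without both 0 h replicate 1 libraries, without the filter on low counts and with total counts as the scale. Id3 lost its call in WT when any one WT 0 h library, WT 48 h replicates 1 or 3 or FNcKO 0 h replicate 3 was left out, without both 0 h replicate 1 libraries, with total counts as the scale and with the replicate block. Bmp2 lost its call in WT without WT 0 h replicates 1 or 3, WT 48 h replicates 1 or 2, or both 0 h replicate 1 libraries, and gained one in FNcKO without FNcKO 0 h replicate 2, with total counts as the scale and with the replicate block. Inhba gained a call in WT without FNcKO 0 h replicate 3 and in the fit on the WT libraries alone. With total counts in place of TMM as the scale, the median of all genes moved to log2 0.29 in FNcKO and 0.23 in WT. On that scale 3 of the 10 were higher and 1 lower in FNcKO, and 2 were higher and 1 lower in WT. The share of all tested genes called on that scale is not given here, so these counts have no background beside them. The share of calls over all genes that were higher was then 82.4% in FNcKO and 76.3% in WT, where TMM gave 60.1% in FNcKO and 58.5% in WT.

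Between genotypes, none of the 10 passed in edgeR at 48 h, where 0.24% of all tested genes did. Of the 10, 3 had an unadjusted p under 0.05 (Grem1, Bmp4 and Inhbb), and DESeq2 called 1, Grem1, which edgeR also called without WT 48 h replicate 3. At 0 h none passed, where 0.144% of all tested genes did, 1 had an unadjusted p under 0.05 (Bmp7), and DESeq2 called 0. For the difference of the responses none passed and the share of all tested genes was 0%. Of the 10, 3 had an unadjusted p under 0.05 there (Grem1, Bmp7 and Inhbb), and DESeq2 called 0. Over all 14560 tested genes, 796 had an unadjusted p under 0.05 at 48 h, 1603 at 0 h and 735 for the difference of the responses. Nothing is read from these counts either.

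Levels can be set beside each other between genes only per length, for which the deposited RPKM values (read counts scaled by coding length and by the library total, without TMM) were used. At 48 h Grem1 stood first, at 87.3 ± 55.9 RPKM in FNcKO and 642 ± 567 RPKM in WT (SD, n = 3 each). At 0 h it stood last, at 1.4 ± 0.60 RPKM in FNcKO and 1.43 ± 0.34 RPKM in WT. In FNcKO at 48 h Grem1 overlapped with Id3, at 49.7 ± 3.43 RPKM, and in WT at 48 h its lowest library was above every library of Bmp7, the next gene, at 43.9 ± 8.59 RPKM. Id3 stood first at 0 h, at 62.7 ± 24.0 RPKM in FNcKO, where it overlapped with Bmp7 at 62.0 ± 2.75 RPKM, and at 70.6 ± 11.2 RPKM in WT. Smad6 was last at 48 h, with 4.08 ± 0.51 RPKM in FNcKO and 3.92 ± 0.96 RPKM in WT. Bmp2, Id1 and Inhba overlapped in the order of FNcKO at 48 h, at 32.1 ± 5.18, 30.0 ± 8.03 and 29.6 ± 12.1 RPKM.

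The 5 genes most like Id1 over the 12 libraries were Tom1l2 (Pearson r = 0.895), Zfp646 (0.842), Cml1 (0.841), Acox2 (0.833) and A330074K22Rik (0.822). These coefficients were lower than those of the genes most like Grem1.

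Another 54 genes of the BMP and activin pathways were taken as a list, of which 44 passed the filter on low counts. In FNcKO, 6 rose and 8 fell at 48 h, where 14.9% of all tested genes rose and 9.9% fell. In WT 10 rose and 13 fell, where 19.1% of all tested genes rose and 13.5% fell, with median changes of log2 −0.09 in FNcKO and −0.20 in WT. On the scale of total counts, 9 were higher and 5 lower in FNcKO and 11 higher and 11 lower in WT, without a share of all genes on that scale. None passed between the genotypes in edgeR, while DESeq2 called 1 gene at 48 h and 0 elsewhere. At an unadjusted p under 0.05 in edgeR there were 3 at 48 h, 3 at 0 h and 1 for the difference of the responses. The numbers over all 14560 tested genes were 796, 1603 and 735 in the same order, and nothing is read from these counts. The changes below are log2 values of 48 h over 0 h with edgeR BH-adjusted p. This list, too, was chosen with earlier results of these libraries known, so its counts and p-values are not independent evidence of a direction.

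Among 11 tested antagonists, 1 rose and 4 fell in FNcKO, and 4 rose and 3 fell in WT. Fst, which encodes the activin-binding protein follistatin, rose in both genotypes. Fst had 2.54, 5.79 and 8.67 CPM in FNcKO at 48 h, against 1.45, 1.04 and 1.29 CPM in FNcKO at 0 h (log2 2.16, SE 0.56, adjusted p = 0.0128). In WT it had 8.66, 3.69 and 14.4 CPM at 48 h, against 0.502, 0.510 and 0.361 CPM at 0 h (log2 4.23, SE 0.62, adjusted p = 0.000326). The 0 h groups rested on 13, 9 and 9 counts in FNcKO and 5, 5 and 3 counts in WT.

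The other antagonists that fell included Bmper, which binds BMPs outside the cell, by log2 −2.40 in FNcKO (adjusted p = 0.00617) and −2.93 in WT (adjusted p = 0.00160). Sostdc1, a secreted BMP antagonist, fell by log2 −1.91 in FNcKO (adjusted p = 0.0103) and −2.38 in WT (adjusted p = 0.00277). Crim1, a transmembrane protein with BMP-binding repeats, fell in both genotypes by log2 −1.22 in FNcKO (adjusted p = 0.0308) and −1.46 in WT (adjusted p = 0.0108). Its call in FNcKO was lost with total counts as the scale. Crim1 averaged 1279 ± 565 CPM in FNcKO at 48 h, against 2989 ± 698 CPM in FNcKO at 0 h, and 960 ± 349 CPM in WT at 48 h, against 2634 ± 571 CPM in WT at 0 h (SD, n = 3 each). So the antagonists did not share a direction.

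Among 6 tested ligands, none rose, 1 fell in FNcKO and 3 fell in WT. Gdf10 (BMP3b) fell by log2 −2.81 in FNcKO (adjusted p = 0.0399), with overlapping libraries, and by −4.02 in WT (adjusted p = 0.00860). Gdf6 fell by log2 −2.33 in WT (adjusted p = 0.0370), and was at −1.05 in FNcKO without passing. Its levels were low, with a mean of 0.33 CPM in WT at 48 h and 1.72 CPM in WT at 0 h. The WT call of Gdf6 was lost with total counts as the scale.

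Among 11 tested receptors and co-receptors, 2 rose and 2 fell in FNcKO, and 2 rose and 4 fell in WT. Eng, the co-receptor endoglin that is best known from endothelial cells, rose by log2 2.68 in FNcKO (adjusted p = 0.00757) and 3.29 in WT (adjusted p = 0.00155). The summed level of 6 vascular endothelial markers was 16.9 to 46.0 CPM in FNcKO at 48 h, against 3.91 to 20.2 CPM in FNcKO at 0 h. It was 39.3 to 66.1 CPM in WT at 48 h, against 13.1 to 39.5 CPM in WT at 0 h. Kdr, the marker with the highest level in WT at 0 h, averaged 25.0 CPM there and 17.5 CPM in WT at 48 h. Of the 6 markers, 4 rose past the threshold in FNcKO and 3 in WT, and none fell past it. Pecam1, Cdh5 and Tie1 rose past it in both genotypes. The part of those cells in Eng was not tested. Acvr1, a type I receptor, rose by log2 0.84 in FNcKO (adjusted p = 0.00626) and 1.26 in WT (adjusted p = 0.000401). Bambi, a decoy receptor, fell by log2 −0.95 in FNcKO (adjusted p = 0.0116) and −1.49 in WT (adjusted p = 0.000646). It lost its call in FNcKO with total counts as the scale. Rgmb, a co-receptor for BMPs, fell by log2 −1.07 in FNcKO (adjusted p = 0.00102) and −1.31 in WT (adjusted p = 0.000209).

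Among 11 tested Smads and Smad regulators, 3 rose and none fell in FNcKO, and 4 rose and 1 fell in WT. Smurf1, a ubiquitin ligase that acts on BMP Smads, rose by log2 1.32 in FNcKO (adjusted p = 0.000375) and 1.26 in WT (adjusted p = 0.000328). Smad7, the other inhibitory Smad, rose by log2 0.80 in FNcKO (adjusted p = 0.0378), with overlapping libraries, and 0.85 in WT (adjusted p = 0.0237). Smad9, a BMP Smad, fell by log2 −2.33 in WT (adjusted p = 0.00628), and was at −1.25 in FNcKO without passing. Among 5 further tested targets, none rose, 1 fell in FNcKO and 2 fell in WT. Msx2, a homeobox target of BMPs, fell by log2 −1.41 in FNcKO (adjusted p = 0.0226) and −1.75 in WT (adjusted p = 0.00595). Hey1, a transcriptional repressor, fell by log2 −1.41 in WT (adjusted p = 0.0183), and was at −0.96 in FNcKO without passing.

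**Figure D4:**
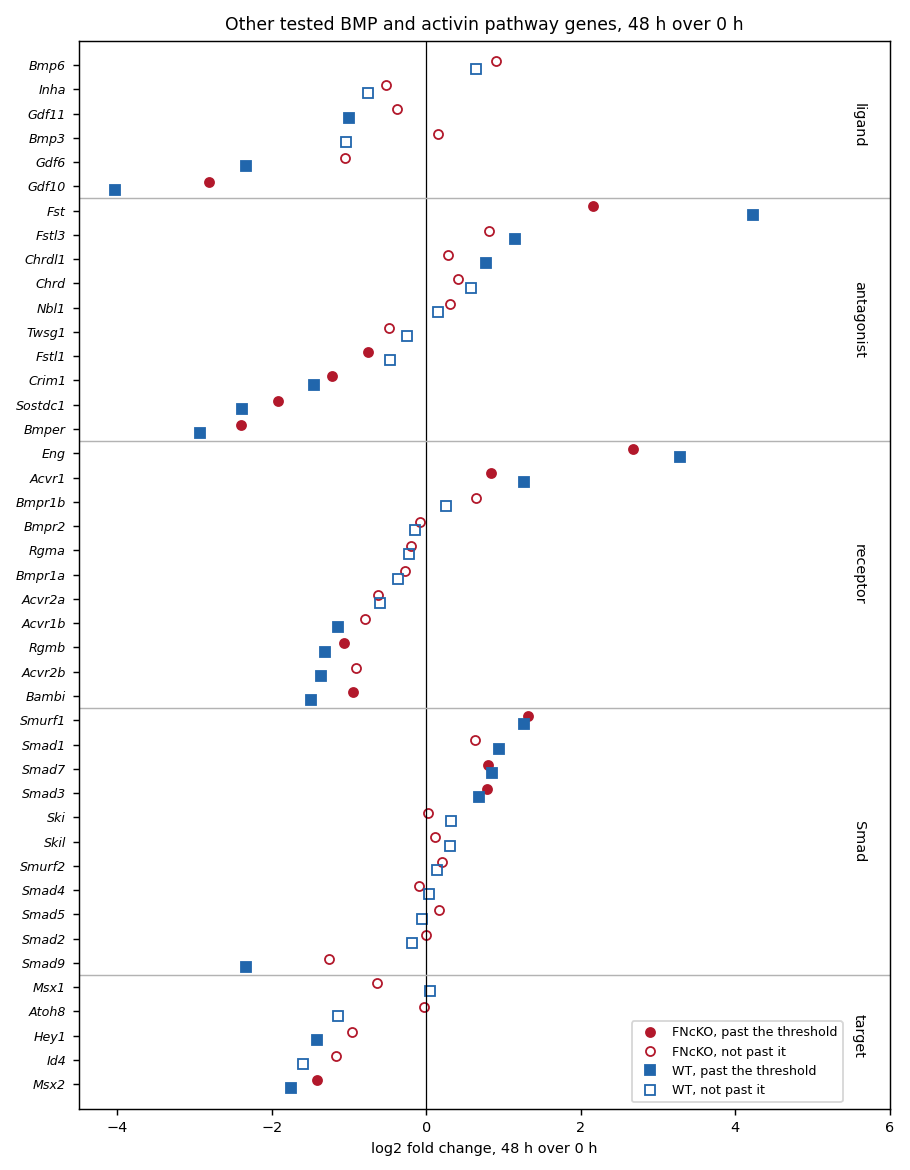
Fitted log2 fold change of 48 h over 0 h (x axis) for tested genes of the list, ordered by role, in FNcKO (circles) and WT (squares). Filled symbols passed an adjusted p of 0.05, with Eng at 2.68 in FNcKO and Fst at 4.23 in WT as the highest, and Gdf10 at −2.81 in FNcKO and −4.02 in WT as the lowest.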

How the data were processed

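RNA was sequenced from 12 libraries of lens capsule with attached lens epithelial cells. The authors deposited a whole-number read count and an RPKM value per gene and library, per the file headers. Per the submitters' processing notes, the tools were HTSeq 0.6.1p1, TopHat2 2.1.0, edgeR 3.16.5, Trim Galore 0.4.4, FastQC, bedtools 2.17 and SAMtools 1.4 on build mm10, with no roles stated. Annotation and strand setting: not given in the sources used here. In addition, the labels name both a plain and a stranded TruSeq kit. RPKM recomputed from the counts matched the deposited values, which were used only to order genes by level.

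Counts were fitted in R 4.3.3 with edgeR 4.0.16: filterByExpr, TMM scaling, and a robust quasi-likelihood model with 4 group means. Each of the 5 comparisons was adjusted by Benjamini-Hochberg (BH) over all 14560 tested genes, with a threshold of 0.05. The SE is the log2 value divided by the square root of F, an approximation. The model was tested on simulated data. In the comparisons of 2 groups it recovered 23% to 30% of 2-fold changes and 70% to 75% of 4-fold changes. For the difference of the responses it recovered 4% of 2-fold and 52% of 4-fold changes. Few genes were changed in each simulation, and 100 to 114 of all 14560 passed in the comparisons of 2 groups. In the real libraries 3611 passed over time in FNcKO and 4745 in WT. More calls loosen the BH cutoff, so the recovered shares do not carry over to the comparisons over time. DESeq2 1.42.0, other scalings, no filter, fits on the 2 groups compared, a replicate block and leaving out each library were alternatives. A combined table was not used, because 1 of its columns, named for WT 0 h replicate 1, holds the counts of FNcKO 0 h replicate 1 for all 24147 genes.

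The 10 genes and all lists were chosen with earlier results of these data known. From the pathway list, genes past the threshold were eligible to be named, at most 12 per comparison by size, and the 5 genes most correlated with Grem1 and with Id1 were named. The p-values set a difference between groups against the spread estimated from these libraries. Which libraries to describe singly was picked after the values were seen. In the pathway list, 1 gene is counted but not reported here by name or in the plot.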

Additional observations from a re-analysis of the deposited data

How the results depend on the processing

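Of the log2 values of the 10 genes under the alternatives, 862 kept their direction and their side of the threshold, 29 lost their call, 7 gained one and 42 changed sign. Values that changed sign were not called in either fit. Where a count or sign below moved, the cause was not tested. With 3 libraries a group, a change that missed the threshold is not shown to be absent. Levels near those of Grem1 at 0 h, Fst at 0 h or Gdf6 in any group rest on few counts.

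With total counts as the scale, 3 of the 10 genes passed over time in WT, and 10 genes of all passed between genotypes at 0 h. The signs that changed on that scale were Bmp4 over time in FNcKO at 0.11, Bmp7 at −0.060 and Id2 at −0.027 between genotypes at 48 h, and Grem1 at −0.021 and Smad6 at −0.031 between genotypes at 0 h. Without the filter on low counts Id3 at 0 h was at 0.0023 between genotypes and the difference of the Smad6 responses at −0.0061.

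DESeq2 called 1 of the 10 genes, Grem1, and 122 genes of all between genotypes at 48 h, 130 of all at 0 h and 28 of all for the difference of the responses, where edgeR called 35, 21 and 0. Fitted on the 2 groups compared alone, 7 genes of all passed at 48 h.

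Replicate numbers did not pair the libraries: of 18 pairs with the same number, 4 had deviations correlated over 0.1, with a range of −0.474 to 0.291. With the number as a replicate block, 1 gene of all passed for the difference of the responses, Id2 at 48 h was −0.032 and Id3 at 0 h was 0.013 between genotypes. The block called 5 of the 10 genes over time in FNcKO and 4 in WT, with Bmp2 gained in FNcKO and Id3 lost in WT.

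Without both 0 h replicate 1 libraries, 2 of the 10 genes passed over time in WT. Over all genes 2299 passed over time in FNcKO, 14 between genotypes at 48 h and 2 at 0 h. Grem1 at 0 h was then −0.27 between genotypes, and the difference of the Bmp2 responses was 0.029.

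When single libraries were left out, 1 to 5 of the 10 genes passed over time in WT and 0 to 1 between genotypes at 48 h. Over all genes, 2232 to 4095 passed over time in FNcKO and 3209 to 5220 in WT. Between genotypes 10 to 46 passed at 48 h and 2 to 28 at 0 h, and 0 to 1 passed for the difference of the responses. Over time in FNcKO, Bmp4 ran from −0.41 to 0.079, Inhba from −0.40 to 0.58 and Id1 from −0.13 to 0.47. Between genotypes at 48 h, Bmp7 ran from −0.072 to 0.16, Id2 from −0.36 to 0.26, Id3 from −0.0059 to 0.60 and Smad6 from −0.049 to 0.34. At 0 h, Grem1 ran from −0.21 to 0.40, Bmp2 from −0.38 to 0.18, Inhba from −0.86 to 0.085, Id3 from −0.27 to 0.24 and Smad6 from −0.025 to 0.29. The difference of the responses ran from −0.36 to 0.22 for Bmp2, from −0.0048 to 0.60 for Id3 and from −0.17 to 0.21 for Smad6.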
